A study of Mus musculus with 15 samples.

Results

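Drug and organic ion transporters of the blood-CSF barrier were followed from normal mouse choroid plexus into choroid plexus papilloma and carcinoma. The group was defined by gene symbol alone: the ABC transporter families Abca, Abcb, Abcc and Abcg, the organic anion transporting polypeptides (Slco), the organic ion transporters of the Slc22 family, the multidrug and toxin extrusion proteins (Slc47) and the equilibrative nucleoside transporters (Slc29). It held 86 of the 22180 genes measured, namely 16 Abca, 9 Abcb, 10 Abcc, 6 Abcg, 15 Slco, 24 Slc22, 4 Slc29 and 2 Slc47 genes. Total RNA of snap-frozen tissue was hybridised to single-colour expression arrays, with 5 arrays in each of the 3 groups, which the series description gives as collected from different mice. All groups shared a mixed C57Bl/6 and 129 background and had the genotype Myc/Myc. Normal choroid plexus came from Myc/Myc; p53fl/fl mice without Cre, papilloma from Atoh1-Cre; Myc/Myc mice and carcinoma from Atoh1-Cre; Myc/Myc; p53fl/fl mice. The normal mice therefore carried the floxed p53 allele that the papilloma mice did not, and the ages of the mice were not given. Cre was driven from Atoh1 sequences, which are active in rhombic lip progenitors of the embryonic hindbrain, and tumours were taken when mice showed signs of disease. Values are log2 intensities, so a difference of 1 is a 2-fold change, and levels are not compared between genes because each gene has its own probes.

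The epithelium of the choroid plexus secretes cerebrospinal fluid (CSF) and its tight junctions form the blood-CSF barrier. Transporters on its apical and basolateral faces take organic anions, cations, hormones and nucleosides across, and many of them clear drugs and metabolites from the CSF into blood. ABC transporters use ATP to export their substrates, while SLC and SLCO carriers work by exchange, cotransport or facilitated diffusion. Several of the same genes are also expressed at other barriers of the brain: Abcb1a and Slco1a4 in capillary endothelium, and Slc47a1, Slc22a6 and Slc22a8 in the meninges.

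The tissue label was checked against 17 measured marker genes of the choroid plexus epithelium, such as Ttr and Otx2. None of them lay below the array median in every array of any group, and the mean over the list was 12.82 to 12.89 in normal, 12.20 to 12.54 in papilloma and 12.01 to 12.46 in carcinoma arrays. The array medians over all probe sets were 6.791 to 6.896. Some arrays stood apart. Normal arrays 2 to 5 carried both Xist (10.69 to 12.48) and the Y-linked gene Uty (7.98 to 10.44), whereas normal array 1 and each of the 10 tumour arrays carried only 1 of the 2 at a high level. A normal array that carries both may hold tissue of more than 1 mouse, in which case the normal SD is a spread of pools; this cannot be told from the labels. Counts, and the values of some but not all genes, are therefore also given against normal array 1 alone. There the spread is taken from the tumour groups. Papilloma arrays 2 and 4 had the highest means over 10 neuron markers among the tumours (9.28 and 8.41), where normal arrays had 8.09 to 8.57 with array 1 the highest, and carcinoma array 4 the highest mean over 15 macrophage markers (8.59). In bulk tissue, fewer cells of a type and less RNA per cell cannot be told apart.

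In carcinoma 24 transporter genes were lower and 11 were higher than in normal choroid plexus, and in papilloma 19 were lower and 8 were higher. The strongest falls were in Slc47a1, Slc22a8 and Slco1a5 in carcinoma and in Slc22a8, Slc47a1 and Slco1a4 in papilloma. The strongest rises were in Abcb6 in carcinoma and in Slc29a3 in papilloma. That of Slc29a3 rests on its brighter probe set. A second, dimmer set fell in both tumour types, and the mean of both gave a rise of 0.25 in papilloma. Between the tumour types 7 genes were lower and 5 higher in carcinoma, and 2 were lower and 2 higher when normal arrays were left out of the fit. A gene was counted where limma's two-sided p, adjusted by Benjamini-Hochberg over all 22180 genes, was below 0.05. Among all genes 18.7% were higher and 19.2% lower in carcinoma, 17.0% and 16.3% in papilloma, and 6.24% and 5.17% in carcinoma than in papilloma. The share of transporter genes past this threshold was 40.7% for carcinoma against normal, where the share of all genes was 37.9%. It was 31.4% against 33.2% for papilloma and normal, and 14.0% against 11.4% for the 2 tumour types. As a set, with both directions counted, the transporter genes were thus called about as often as any genes. Changes of at least 2-fold numbered 9 falls and 1 rise in each tumour type among the 86 genes. Among all 22180 genes they numbered 988 falls and 979 rises in carcinoma, and 888 falls and 764 rises in papilloma. With both directions counted, 8.87% of all genes passed that mark in carcinoma and 7.45% in papilloma. Between the tumour types 2 genes passed it, against 2.10% of all genes. The groups did not overlap in 25, 30 and 9 transporter genes for the 3 comparisons, where 29.9%, 32.1% and 7.90% of all genes did not overlap. The median difference was -0.08 in carcinoma and -0.03 in papilloma, against -0.02 and 0.01 over all genes. Of the 86 genes, 53 exceeded the array median in at least 5 arrays, and 30 lay below it in all 15. In all, 40 genes passed the threshold in some comparison and 46 in none. Against normal array 1 alone, all 35 genes called in carcinoma and all 27 in papilloma kept their sign, and 16 and 13 stayed past the threshold. Of the genes described next, Slc47a1, Slc22a5, Slc22a6, Slco1a6, Slc29a2, Slc29a3, Abcb1a, Abcb9 and Abca7 did so in both tumour types.

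**Figure D1:**
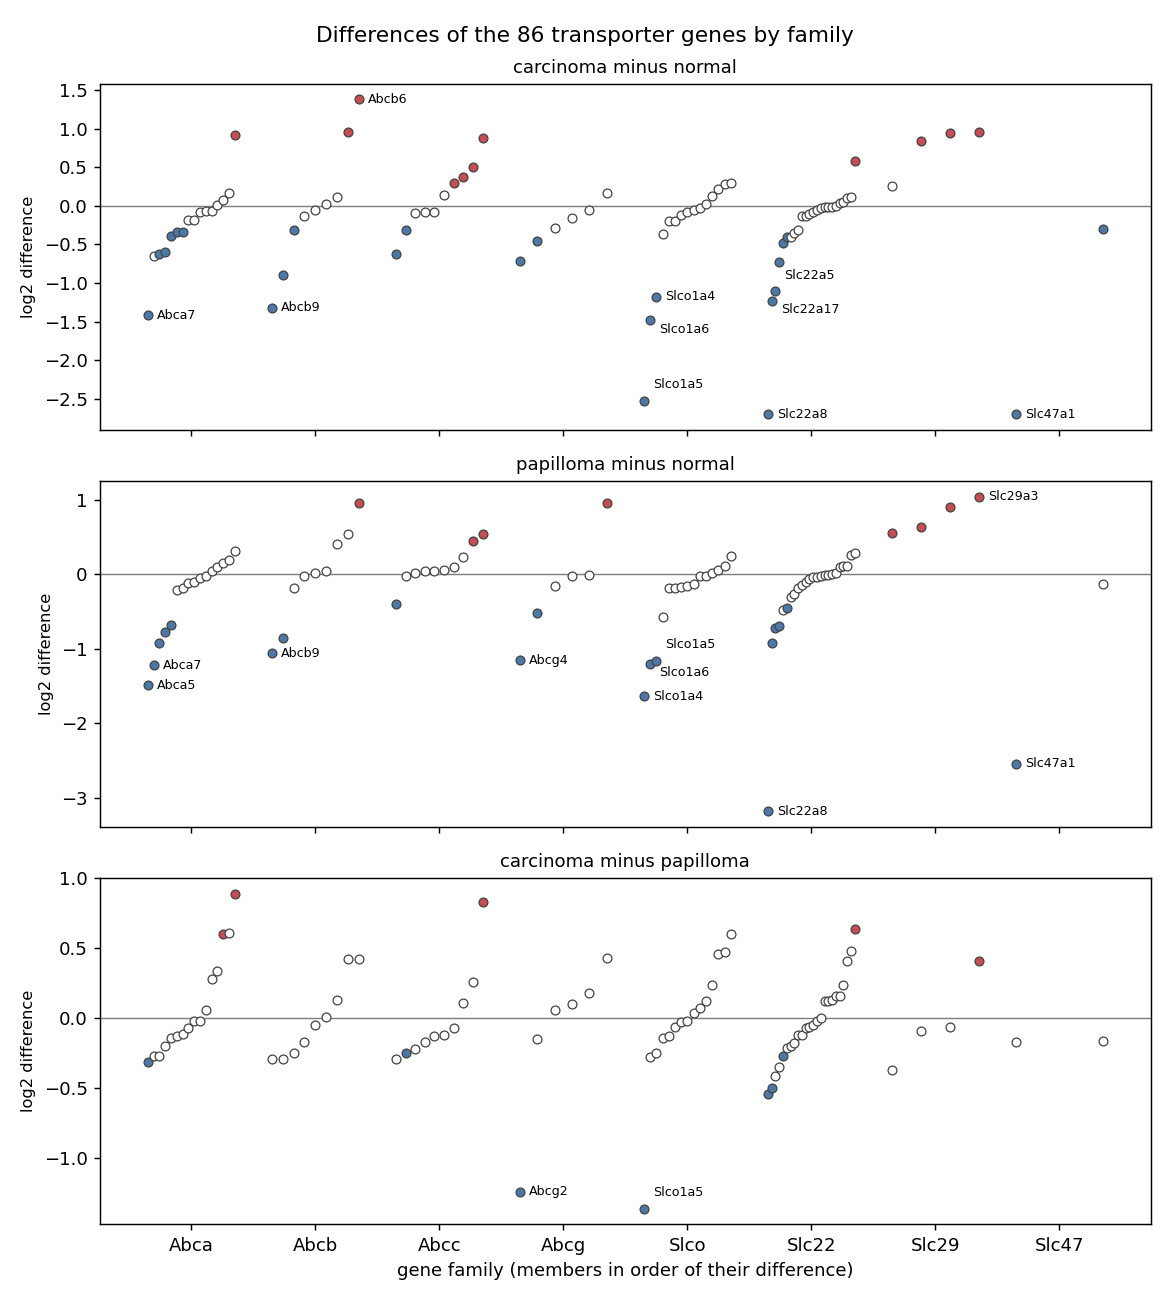
Log2 difference between groups (vertical axis) of each of the 86 transporter genes, arranged by family along the horizontal axis, for carcinoma and for papilloma, with carcinoma minus papilloma in the lowest panel; filled points passed the threshold in limma's test and genes changed at least 2-fold are named. Against normal tissue Slc47a1, Slc22a8 and 3 Slco1a genes lie far below the line at 0, and all 4 Slc29 genes lie above it.

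Slc47a1 encodes MATE1, a proton exchanger that extrudes organic cations. Its level was 9.73, 9.64, 9.59, 9.28 and 9.77 in the normal arrays. It was 6.91, 7.02, 7.44, 6.90 and 7.05 in papilloma and 7.15, 7.01, 6.72, 6.90 and 6.72 in carcinoma. Every tumour array lay more than 1 log2 unit below every normal array. Slc47a1 fell by 2.70 in carcinoma (SE 0.12, 6.50-fold, limma adjusted p = 1.61e-10) and fell by 2.54 in papilloma (SE 0.12, 5.80-fold, adjusted p = 3.29e-10). The 95% interval was -2.96 to -2.44 for carcinoma, and the difference between the tumour types was -0.16 (adjusted p = 0.457). Against normal array 1 alone Slc47a1 fell by 2.83 and by 2.67. Its relative Slc47a2, which encodes the second MATE protein, fell by 0.30 in carcinoma (SE 0.07, adjusted p = 0.00192), while papilloma differed by -0.13 (adjusted p = 0.172). Against normal array 1 alone the difference in carcinoma was -0.30 and its call was not kept. All carcinoma arrays lay below their array medians for Slc47a2.

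Of the Slc22 family's organic anion transporters, Slc22a8 and Slc22a6 fell in both tumour types. Slc22a8 encodes OAT3, which moves organic anions such as penicillins and neurotransmitter metabolites out of the CSF. It was measured at 11.03, 11.31, 11.55, 11.78 and 11.39 in normal tissue and at 7.61, 8.63, 8.35, 8.08 and 8.51 in papilloma. In carcinoma it was 8.28, 7.49, 8.43, 10.22 and 9.17, so that array 4 was the least reduced. Slc22a8 fell by 3.18 in papilloma (SE 0.37, 9.04-fold, adjusted p = 5.32e-06) and fell by 2.70 in carcinoma (SE 0.37, 6.48-fold, adjusted p = 2.34e-05). Without carcinoma array 4 the fall in carcinoma was -3.07, and against normal array 1 alone it was -2.31 with an adjusted p of 0.0551. Slc22a6 encodes OAT1, the classical para-aminohippurate exchanger. It ranged from 7.17 to 7.36 in normal, from 6.66 to 6.90 in papilloma and from 6.48 to 6.65 in carcinoma arrays, with no overlap between any groups. It fell by 0.73 in carcinoma (adjusted p = 3.77e-07) and fell by 0.46 in papilloma (adjusted p = 6e-05). All carcinoma arrays lay below their array medians for this gene. The step of -0.27 between the tumour types (adjusted p = 0.0165) was -0.16 with an adjusted p of 0.157 once each chromosome's median shift was removed; Slc22a6 lies on chromosome 19, whose genes had a median deviation of -0.09 in carcinoma.

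Most markers of the meninges, but not all, moved in the same direction as these genes. Of 12 meningeal markers 8 were lower in carcinoma and 8 in papilloma, with 2 and 1 higher. Cdh1, Cldn11, Foxc2 and Slc6a13 were among the lower ones. The higher ones were Crabp2 (2.10) and Foxc1 (1.26) in carcinoma and Ogn (0.58) in papilloma. The mean over that list was 8.44 to 8.82 in normal, 7.32 to 7.67 in papilloma and 7.49 to 7.82 in carcinoma arrays. Of the epithelial markers, 11 of 17 were lower in carcinoma and 9 in papilloma. Of 11 multiciliated cell markers 10 were lower in each tumour type, with a list mean of 10.02 to 10.30 in normal, 6.93 to 7.05 in papilloma and 7.01 to 7.95 in carcinoma arrays. Other lists were lower as well. Of 7 pituitary markers 5 were lower in each tumour type, with a list mean of 7.46 to 8.23 in normal, 6.09 to 6.74 in papilloma and 6.17 to 6.36 in carcinoma arrays. The fibroblast list mean was 9.80 to 10 in normal, 8.62 to 8.99 in papilloma and 8.96 to 9.37 in carcinoma arrays, with 6 of 9 markers lower and 2 higher in papilloma and 4 lower and 2 higher in carcinoma. Of the neuron and oligodendrocyte markers 5 of 10 and 5 of 6 were lower in carcinoma, and 2 and 3 in papilloma. The part of these cell types in the transporter differences was not tested.

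**Figure D2:**
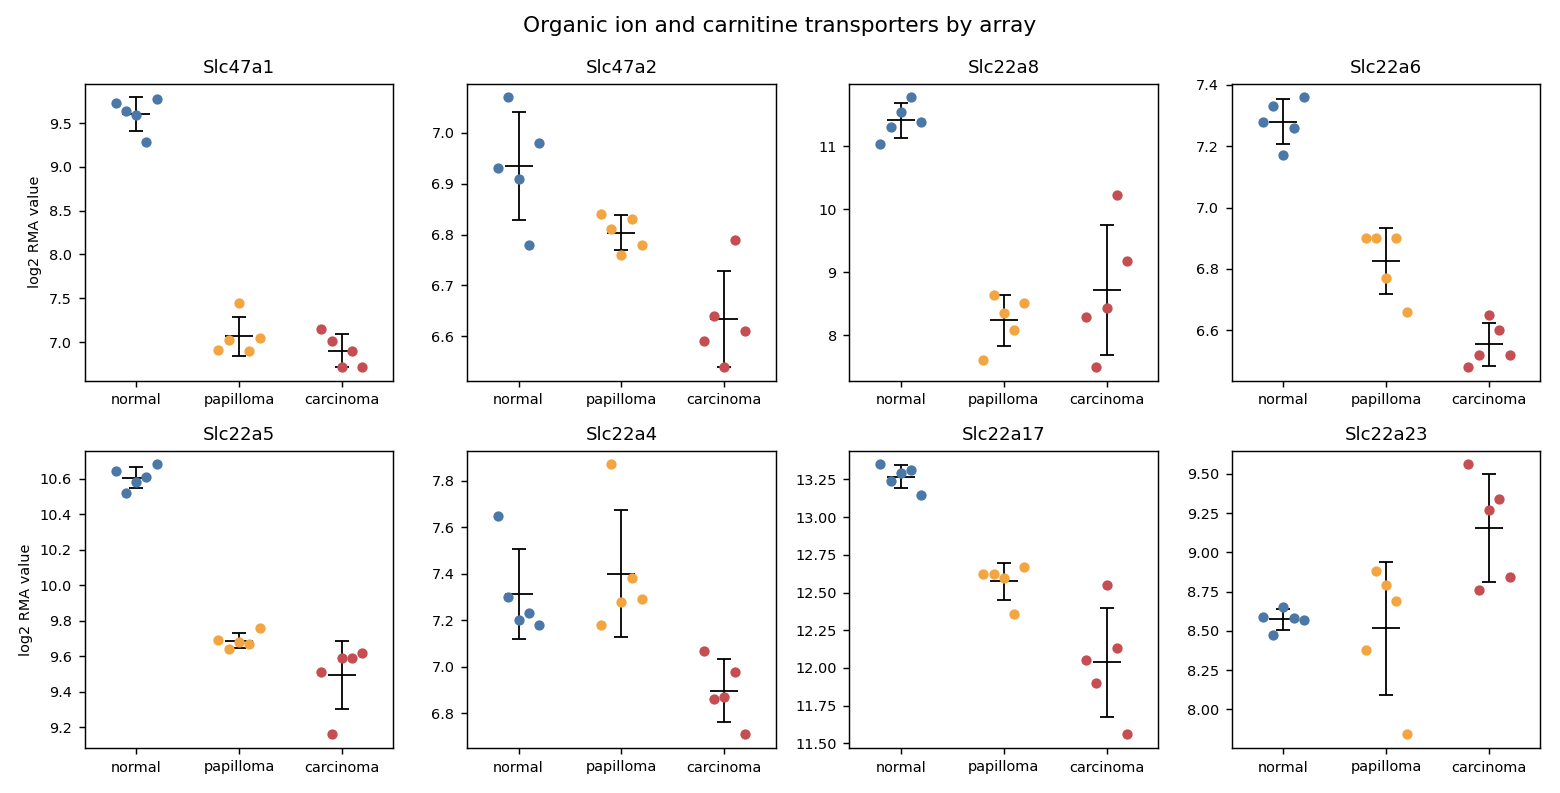
Log2 level (vertical axis) of 8 organic ion transporter genes in each array of normal choroid plexus, papilloma and carcinoma; points are arrays and the bar gives the mean ± SD of 5 arrays. Slc47a1 and Slc22a8 separate every tumour array from every normal array, with carcinoma array 4 the highest of the tumours for Slc22a8.

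Slc22a5 and Slc22a4 belong to the carnitine and cation carriers of the same family. Slc22a5 encodes OCTN2, the sodium-coupled carnitine carrier. It was 10.52 to 10.68 in normal, 9.64 to 9.76 in papilloma and 9.16 to 9.62 in carcinoma arrays, and fell by 1.11 in carcinoma (adjusted p = 2.65e-08) and fell by 0.92 in papilloma (adjusted p = 2.54e-07). Its neighbour Slc22a4, which encodes OCTN1, an ergothioneine carrier, differed by -0.41 in carcinoma (adjusted p = 0.0164) and by 0.09 in papilloma (adjusted p = 0.657). The 2 tumour types differed in Slc22a4 by -0.50 (adjusted p = 0.0171), and without papilloma arrays 2 and 4 by -0.35 (adjusted p = 0.0814). Slc22a17, which encodes a lipocalin 2 receptor, was 13.15 to 13.35 in normal, 12.36 to 12.67 in papilloma and 11.56 to 12.55 in carcinoma arrays, so that only the tumour types overlapped. It fell by 1.23 in carcinoma (adjusted p = 1.98e-06) and fell by 0.69 in papilloma (adjusted p = 0.000671), and the tumour types differed by -0.54 (adjusted p = 0.0161; 0.0687 when normal arrays were left out of the fit). Slc22a23, an orphan member, was the only Slc22 gene that rose: it was 0.58 higher in carcinoma than in normal (adjusted p = 0.0192) and 0.64 higher than in papilloma (adjusted p = 0.0343). The first of these had an adjusted p of 0.0565, and the second of 0.0878, without carcinoma array 1. The second call was also lost without carcinoma array 3 or 4 or papilloma array 1 or 5 (adjusted p 0.0617 to 0.0736). Of the 24 Slc22 genes, 6 fell and 1 rose in carcinoma, and 5 fell and none rose in papilloma. The family was thus called less often (29.2% and 20.8%) than all genes (37.9% and 33.2%). It includes dim genes such as Slc22a27, Slc22a29 and Slc22a30, which lay below the array median in every array. Of genes above the array median in at least 5 arrays, 53.1% were called in carcinoma and 47.1% in papilloma. The family's shares were not restricted to such genes.

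Among the organic anion transporting polypeptides 3 Slco1a genes of the cluster on chromosome 6 fell in both tumour types, while Slco1c1 in the same cluster did not pass the threshold. These carriers take up thyroid hormones, steroid conjugates, bile acids and many drugs. The 200 bases before the RefSeq start of Slco1a5 (chr6:142322982-142323181, minus strand) and of Slco1c1 (chr6:141524154-141524353, plus strand; both GRCm38.p6) are shown because these genes lie in 1 cluster and differed in the tumours; each CG dinucleotide is in capitals, and the sequences hold 1 and 0 of them.
Slco1a5: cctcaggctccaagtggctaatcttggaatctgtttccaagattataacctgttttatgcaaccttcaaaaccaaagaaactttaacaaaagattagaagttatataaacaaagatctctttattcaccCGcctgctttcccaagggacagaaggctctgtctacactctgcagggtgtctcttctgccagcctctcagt
Slco1c1: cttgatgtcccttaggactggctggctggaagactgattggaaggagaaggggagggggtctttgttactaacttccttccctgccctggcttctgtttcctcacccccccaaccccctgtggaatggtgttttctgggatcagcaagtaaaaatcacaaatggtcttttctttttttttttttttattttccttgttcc

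Slco1a5 encodes OATP1A5, an apical carrier of the choroid epithelium. Its level in normal tissue was 10.16, 10.17, 10.21, 10.19 and 10.15. It was 8.54, 8.99, 9.21, 9.05 and 9.26 in papilloma and 8.08, 7.20, 8.46, 7.57 and 6.93 in carcinoma. The 3 groups did not overlap and carcinoma was the lowest. Slco1a5 fell by 2.53 in carcinoma (SE 0.23, 5.77-fold, adjusted p = 2.57e-07) and fell by 1.16 in papilloma (SE 0.23, adjusted p = 0.000733). The tumour types differed by -1.36 (adjusted p = 0.0012). Against normal array 1 alone the differences from normal were -2.51 in carcinoma and -1.15 in papilloma. The papilloma call of Slco1a5 was not kept there. Slco1a4 encodes OATP1A4, which is known from brain endothelium and the basolateral face of the choroid epithelium. It was 11.16 to 11.43 in normal, 8.32 to 10.64 in papilloma and 9.18 to 10.50 in carcinoma arrays. It fell by 1.64 in papilloma (adjusted p = 0.00108) and fell by 1.18 in carcinoma (adjusted p = 0.0102), and neither passed the threshold against normal array 1 alone (adjusted p = 0.185 and 0.339). Slco1a6 fell by 1.48 in carcinoma (adjusted p = 9.1e-07) and fell by 1.20 in papilloma (adjusted p = 1.04e-05), to between 5.57 and 6.07 in tumours, below the array medians. The Slco1a genes are close paralogs, and probes shared between their transcripts could not be told apart here.

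Slco1c1 encodes OATP1C1, the thyroxine carrier of the blood-brain and blood-CSF barriers. It was 13.30, 13.28, 13.25, 13.26 and 13.22 in normal and 13.26, 13.19, 13.07, 12.99 and 13.15 in papilloma arrays. In carcinoma it was 13.17, 13.26, 13.18, 11.68 and 13.14. The 1 low value was that of carcinoma array 4, and all other arrays lay within 12.99 to 13.30. The difference in carcinoma was -0.37 with a 95% interval of -0.85 to 0.11 (adjusted p = 0.221), and without array 4 it was -0.07 (adjusted p = 0.415). Slco2a1, the prostaglandin carrier, differed by 0.22 in carcinoma (adjusted p = 0.268) and by -0.02 in papilloma (adjusted p = 0.943). Slco2b1 differed by -0.20 (adjusted p = 0.163) and by -0.16 (adjusted p = 0.278), and in carcinoma by -0.28 without array 4 (adjusted p = 0.0175). Of the 15 Slco genes, the 3 Slco1a genes named were the only ones past the threshold against normal in either tumour type. They were 20% of the family, where 37.9% of all genes were called in carcinoma and 33.2% in papilloma. The family includes dim genes such as Slco6b1, Slco6c1 and Slco6d1, which lay below the array median in every array. Of genes above the array median in at least 5 arrays, 53.1% and 47.1% were called.

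**Figure D3:**
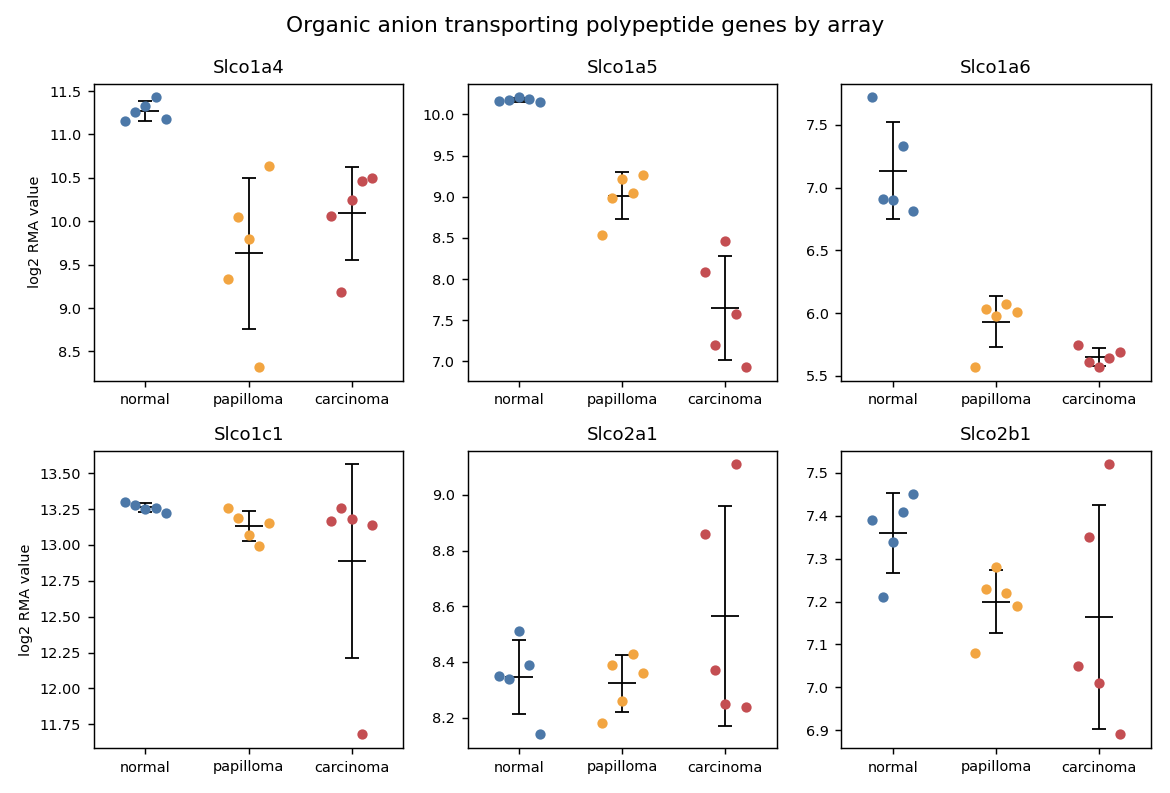
Log2 level (vertical axis) of 6 Slco genes in each array of normal choroid plexus, papilloma and carcinoma; points are arrays and the bar gives the mean ± SD of 5 arrays. The Slco1a genes are lower in tumours, and Slco1c1 is level in all but carcinoma array 4.

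The equilibrative nucleoside transporters rose. These carriers let nucleosides, and nucleoside drugs, cross membranes down their gradients, and they feed the salvage of nucleotides. All 4 were higher in papilloma than in normal tissue, and 3 of 4 in carcinoma, with median differences of 0.77 and 0.89. Among all genes 17.0% were higher in papilloma and 18.7% in carcinoma. Slc29a1 encodes ENT1, the widely expressed carrier at the cell surface. It was 9.64, 9.63, 9.79, 9.60 and 9.41 in normal, 10.11, 10.09, 10.17, 10.26 and 10.15 in papilloma and 10.48, 10.86, 10.61, 10.51 and 10.39 in carcinoma arrays. The 3 groups did not overlap and carcinoma was the highest. Slc29a1 was 0.96 higher in carcinoma (SE 0.09, adjusted p = 3.91e-07) and 0.55 higher in papilloma (adjusted p = 0.000156), and the tumour types differed by 0.41 (adjusted p = 0.00699). With its second, dimmer probe set averaged in, these rises were 0.61 and 0.33.

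Slc29a2, which encodes ENT2, was 7.85 to 8.41 in normal, 8.86 to 9.13 in papilloma and 8.68 to 9.19 in carcinoma arrays. It was 0.84 higher in carcinoma (adjusted p = 3.32e-05) and 0.90 higher in papilloma (adjusted p = 1.97e-05). Slc29a3 encodes ENT3, a carrier of lysosomes and mitochondria. It was 8.38 to 8.60 in normal, 9.33 to 9.68 in papilloma and 9.24 to 9.59 in carcinoma arrays, rises of 0.94 in carcinoma (adjusted p = 1.57e-07) and 1.04 in papilloma (adjusted p = 6.28e-08). Its probe sets disagreed: a second, dimmer set had means of 6.39, 5.86 and 5.85 in normal, papilloma and carcinoma, and the mean of both gave 0.21 in carcinoma (adjusted p = 0.0601) and 0.25 in papilloma.

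Slc29a4 encodes PMAT, a carrier of monoamines and organic cations on the apical membrane of the choroid epithelium. It was 12.59, 12.59, 12.65, 12.38 and 12.49 in normal and 13.21, 13.14, 13.23, 13.18 and 13.08 in papilloma. In carcinoma it was 12.79, 12.95, 13.12, 12.13 and 12.99. Papilloma lay above every normal array, as did all carcinoma arrays but the fourth. Slc29a4 was 0.63 higher in papilloma (SE 0.14, adjusted p = 0.00223; 0.58 with an adjusted p of 0.224 against normal array 1 alone). The difference in carcinoma was 0.26 with a 95% interval of -0.04 to 0.55 (adjusted p = 0.174), and without carcinoma array 4 it was 0.42 (adjusted p = 0.000448). The 2 cation carriers Slc47a1 and Slc29a4 thus changed in opposite directions in papilloma. Markers of proliferating cells rose over the same groups: 9 of 9 measured markers were higher in each tumour type and higher in carcinoma than in papilloma, with a list mean of 6.91 to 7.04, 8.36 to 8.86 and 9.52 to 10.83 in normal, papilloma and carcinoma arrays. The part of dividing cells in the nucleoside carrier differences was not tested. A nucleoside carrier of the concentrative kind, Slc28a3, fell by 1.60 in carcinoma (adjusted p = 1.77e-06) and differed by -0.14 in papilloma (adjusted p = 0.618).

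The mouse has 2 genes for P-glycoprotein, the best known drug efflux pump, and they moved in opposite directions. Abcb1a is the form of brain capillaries, and Abcb1b is known from adrenal, uterus and dividing liver cells. They are neighbours on chromosome 5. The 200 bases before the RefSeq start of Abcb1a (chr5:8566891-8567090) and of Abcb1b (chr5:8797947-8798146, both plus strand, GRCm38.p6) are shown to set these paralogs side by side, with CG in capitals; they hold 0 and 9 CG dinucleotides.
Abcb1a: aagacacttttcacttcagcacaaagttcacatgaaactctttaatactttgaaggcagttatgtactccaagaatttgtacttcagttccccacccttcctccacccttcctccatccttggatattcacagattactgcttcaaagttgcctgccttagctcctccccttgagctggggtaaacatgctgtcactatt
Abcb1b: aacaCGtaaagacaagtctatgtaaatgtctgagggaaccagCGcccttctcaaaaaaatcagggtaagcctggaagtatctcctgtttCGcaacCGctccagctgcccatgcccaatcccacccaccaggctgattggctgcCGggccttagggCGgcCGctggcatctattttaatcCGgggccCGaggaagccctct

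Abcb1a was 8.35, 7.87, 8.26, 8.13 and 8.44 in normal, 6.96, 7.65, 7.32, 7.48 and 7.38 in papilloma and 7.46, 7.47, 6.90, 7.42 and 7.29 in carcinoma arrays. No tumour array reached the lowest normal array. Abcb1a fell by 0.90 in carcinoma (SE 0.14, adjusted p = 9.17e-05) and fell by 0.85 in papilloma (adjusted p = 0.00019). Abcb1b was 5.77, 5.94, 5.92, 5.75 and 5.90 in normal, 6.45, 6.48, 6.36, 6.39 and 6.29 in papilloma and 6.59, 7.0, 6.62, 5.93 and 7.94 in carcinoma arrays. Papilloma lay above all normal arrays with little spread, and carcinoma spread widely, with array 5 the highest and array 4 within the normal range. Abcb1b was 0.96 higher in carcinoma (SE 0.25, adjusted p = 0.00525; 0.193 against normal array 1 alone). In papilloma it was 0.54 higher with an adjusted p of 0.113 in the fit of all groups, which shares 1 spread, and of 3.03e-05 in the fit of papilloma and normal alone. The levels of Abcb1b in normal arrays lay below the array medians, and cross-hybridisation between these paralogs could not be measured. Of 13 endothelial markers 7 were higher in carcinoma and 6 in papilloma, with 1 lower in papilloma, and the list mean was 8.0 to 8.48, 8.39 to 8.69 and 8.58 to 8.94 in normal, papilloma and carcinoma arrays. The list was mixed, since the tight junction gene Cldn5 fell by 0.70 in papilloma (adjusted p = 0.0474) and differed by -0.29 in carcinoma (adjusted p = 0.424), and Plvap, a gene of fenestrated endothelium, was 0.90 and 1.24 higher. The part of endothelial cells in the Abcb1a difference was not tested.

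Abcg2 encodes BCRP, an efflux pump for sulphated steroids and many drugs. It was 8.09, 8.06, 7.90, 7.97 and 8.54 in normal and 9.45, 8.91, 8.73, 8.78 and 9.49 in papilloma. In carcinoma it was 8.27, 8.38, 8.03, 6.33 and 8.12. Papilloma was the high group, and carcinoma array 4 was far below all others. Abcg2 was 0.96 higher in papilloma (SE 0.31, adjusted p = 0.0262), and the difference between carcinoma and papilloma was -1.24 (adjusted p = 0.0171; 0.0663 when normal arrays were left out of the fit). Without carcinoma array 4 these were 0.96 (adjusted p = 0.000253) and -0.87 (adjusted p = 0.00418), and the difference of carcinoma from normal was 0.09 instead of -0.29, with neither past the threshold. The rise in papilloma had an adjusted p of 0.0506 to 0.067 when normal array 2, 3 or 4 or papilloma array 1 or 5 was left out.

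The Abcc genes encode the multidrug resistance-associated proteins, which export conjugated anions. Abcc1, the basolateral form in the choroid epithelium, was 10.66 to 10.80 in normal, 11.09 to 11.34 in papilloma and 10.61 to 11.41 in carcinoma arrays. It was 0.45 higher in papilloma (adjusted p = 0.00988) and 0.38 higher in carcinoma (adjusted p = 0.0238), the latter with adjusted p between 0.0519 and 0.0648 without normal array 5 or carcinoma array 4 or 5. Abcc4, which exports cyclic nucleotides, prostaglandins and nucleoside analogue drugs, was 10.81 to 10.87 in normal, 10.25 to 10.58 in papilloma and 10.05 to 10.51 in carcinoma arrays. It fell by 0.62 in carcinoma (adjusted p = 2.57e-05) and fell by 0.40 in papilloma (adjusted p = 0.00167). Abcc10 was 0.30 higher in carcinoma (adjusted p = 0.00108) and 0.54 higher in papilloma (adjusted p = 4.06e-06), and the tumour types differed by -0.25 (adjusted p = 0.0173; 0.0614 when normal arrays were left out of the fit and 0.0526 without papilloma arrays 2 and 4). Abcc8, the sulphonylurea receptor of potassium channels rather than a drug pump, was 0.88 higher in carcinoma than in normal (adjusted p = 0.00669). It was 0.83 higher than in papilloma (adjusted p = 0.03, and 0.0739 and 0.0666 without carcinoma array 1 or 2). That call was also lost without papilloma array 1 or 5, or without papilloma arrays 2 and 4 (adjusted p 0.0604 to 0.0722). All normal arrays lay below their array medians for Abcc8. Abcc5 differed by -0.09 (adjusted p = 0.552) and 0.04 (adjusted p = 0.839). Of 10 Abcc genes 4 rose and 2 fell in carcinoma, and 2 rose and 1 fell in papilloma. These were 60% and 30% of the family, against 37.9% and 33.2% of all genes.

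Abcb6, a porphyrin transporter of organelle membranes, had the largest rise of any of these genes in carcinoma. It was 8.64, 8.40, 8.57, 8.46 and 8.32 in normal, 9.53, 9.38, 9.65, 9.11 and 9.53 in papilloma and 9.89, 10.44, 9.73, 9.62 and 9.60 in carcinoma arrays. All tumour arrays lay above all normal arrays. Abcb6 was 1.38 higher in carcinoma (SE 0.15, 2.60-fold, adjusted p = 1.39e-06) and 0.96 higher in papilloma (adjusted p = 6.93e-05). Abcb9, a lysosomal peptide transporter, went the other way and fell by 1.32 in carcinoma (adjusted p = 9.18e-07) and fell by 1.06 in papilloma (adjusted p = 1.12e-05).

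**Figure D4:**
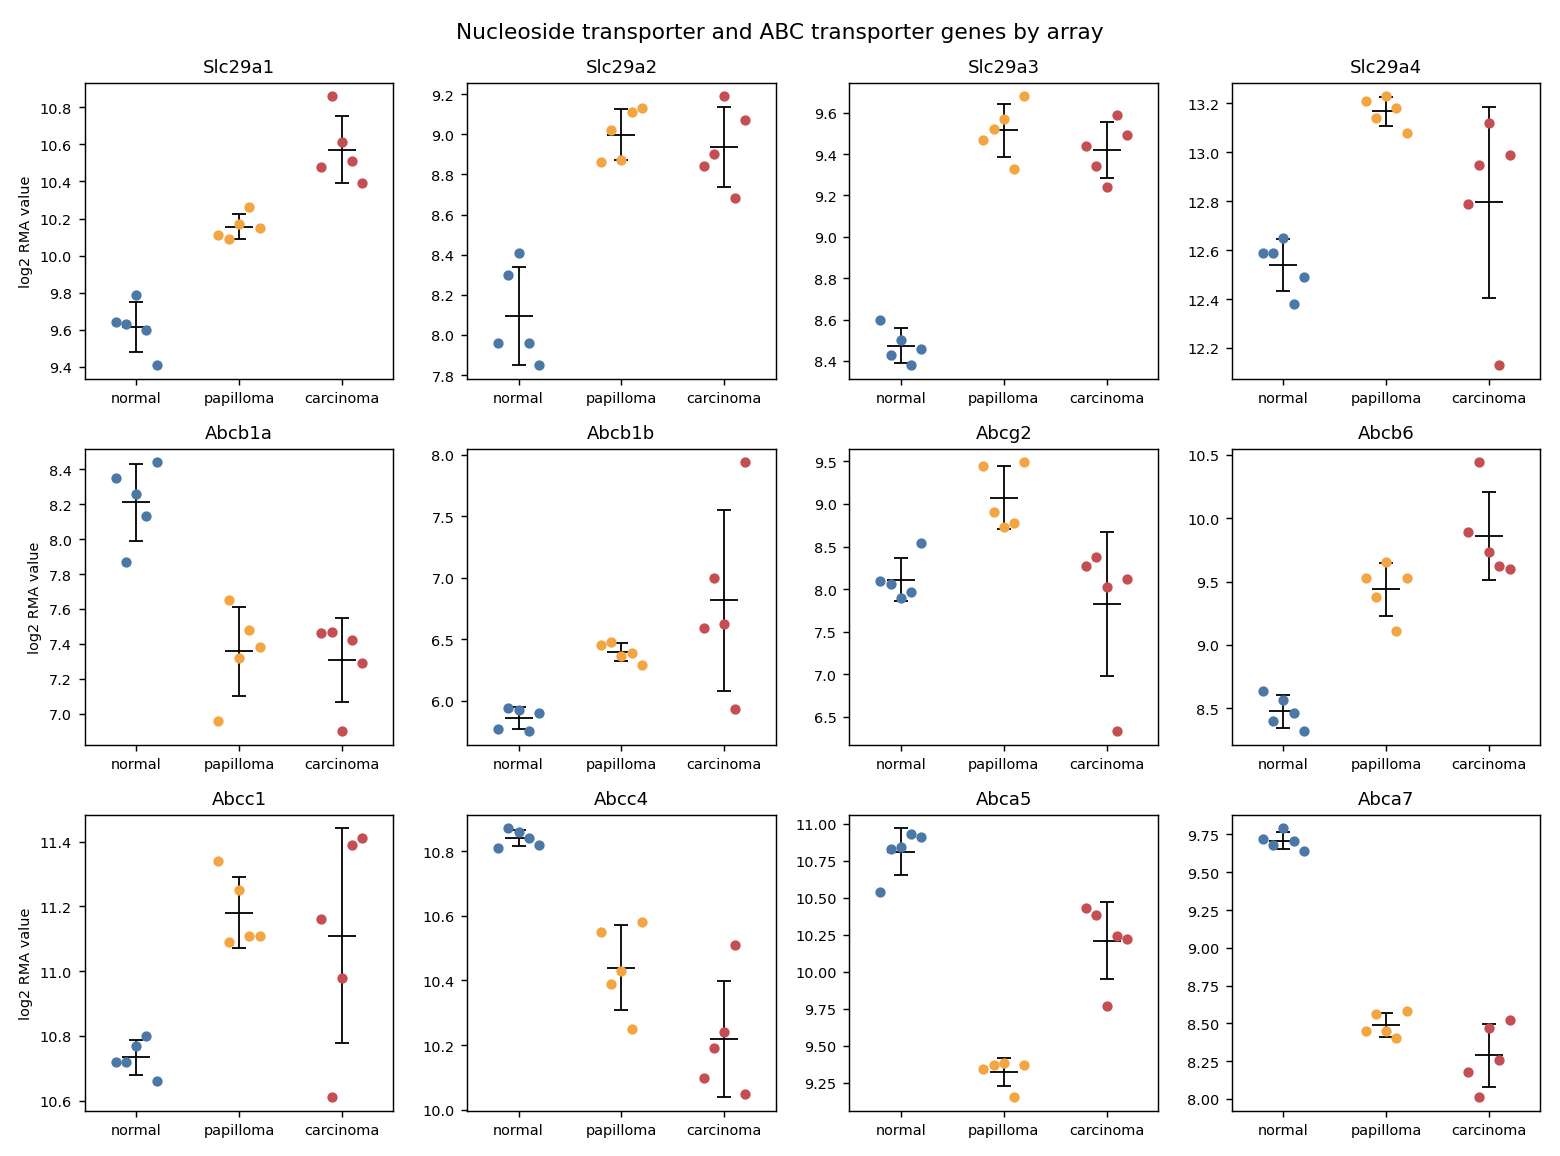
Log2 level (vertical axis, scaled for each gene) of the 4 Slc29 genes and 8 ABC transporter genes in each array of normal choroid plexus, papilloma and carcinoma; points are arrays and the bar gives the mean ± SD of 5 arrays. Abcb1a is lower in tumours, Abcb1b is higher than normal in all tumour arrays but carcinoma array 4, Abcg2 is highest in papilloma, and carcinoma array 4 is the lowest array for Slc29a4 and Abcg2.

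The Abca and Abcg families hold transporters of cholesterol and other lipids. Of 16 Abca genes 6 fell and 1 rose in carcinoma, and 5 fell and none rose in papilloma. Of 6 Abcg genes 2 fell in each tumour type, and Abcg2 rose in papilloma. The shares called in carcinoma and papilloma were 43.8% and 31.2% for Abca and 33.3% and 50% for Abcg. Of all genes 37.9% and 33.2% were called. Abca7, a phospholipid transporter, was 9.64 to 9.79 in normal, 8.40 to 8.58 in papilloma and 8.01 to 8.52 in carcinoma arrays. It fell by 1.42 in carcinoma (SE 0.09, adjusted p = 4.98e-09) and fell by 1.22 in papilloma (adjusted p = 2.78e-08). Abca5, a lysosomal lipid transporter, was 10.54, 10.83, 10.84, 10.93 and 10.91 in normal, 9.34, 9.37, 9.38, 9.15 and 9.37 in papilloma and 10.43, 10.38, 9.77, 10.24 and 10.22 in carcinoma arrays. The groups did not overlap, with papilloma the lowest. It fell by 1.49 in papilloma (SE 0.11, adjusted p = 4.97e-08) and fell by 0.60 in carcinoma (adjusted p = 0.00045; -0.34 and 0.328 against normal array 1 alone), and carcinoma was 0.89 above papilloma (adjusted p = 0.000168).

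Abca1, the cholesterol and phospholipid exporter that builds high-density lipoprotein, fell by 0.78 in papilloma (SE 0.15, adjusted p = 0.000764) and differed by -0.19 in carcinoma (adjusted p = 0.387). Its levels were 11.16 to 11.41 in normal, 10.28 to 10.69 in papilloma and 10.70 to 11.67 in carcinoma arrays, and the tumour types differed by 0.60 (adjusted p = 0.0192; 0.0543 without papilloma array 3). Abcg1, which exports cholesterol to lipoproteins, differed by 0.16 in carcinoma (adjusted p = 0.434) and by -0.02 in papilloma (adjusted p = 0.943). Carcinoma array 2 decided that value: without it Abcg1 was 0.32 higher in carcinoma (adjusted p = 0.0123). Its homologue Abcg4 fell by 1.15 in papilloma (adjusted p = 0.00338) and fell by 0.72 in carcinoma (adjusted p = 0.0469), where the call was lost when any 1 of 11 arrays was left out and with the replicate numbers as a block. Abca4, the retinoid flippase known from the retina, fell by 0.34 in carcinoma (adjusted p = 0.00436) and differed by -0.03 in papilloma (adjusted p = 0.846). Abca8a was the only Abca gene that rose, being 0.92 higher in carcinoma (adjusted p = 0.00886); Abca5, Abca6 and Abca9, which each fell in at least 1 tumour type, lie on the same chromosome 11.

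Other genes of drug handling were followed as 3 lists (solute carriers, enzymes, sensors and scaffolds), with counts from the same limma fit. The shares called were 65.5%, 53.5% and 48% in carcinoma, 51.7%, 46.5% and 40% in papilloma, and 17.2%, 14% and 20% between the tumour types. Of all genes 37.9%, 33.2% and 11.4% were called in these comparisons. Of genes above the array median in at least 5 arrays it was 53.1%, 47.1% and 16.8%. Of 29 measured further solute carriers, 11 were higher and 8 lower in carcinoma, 8 higher and 7 lower in papilloma, and 4 higher and 1 lower in carcinoma than in papilloma. Slc16a10, an aromatic amino acid carrier (1.96), and the monocarboxylate carrier Slc16a7 (1.53) had the largest rises in carcinoma, and Slc16a1, the lactate carrier MCT1, was 0.96 higher there and 0.97 higher in papilloma. Slc16a8, the related carrier MCT3 known from the retinal pigment epithelium, fell by 2.05 in carcinoma and fell by 2.08 in papilloma. Slc10a6 (1.46) and Slc19a2 (0.88), a sulphated steroid carrier and a thiamine carrier, were the other leading rises in papilloma.

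Of 43 enzymes of drug conjugation and oxidation, 9 were higher and 14 lower in carcinoma, 8 higher and 12 lower in papilloma, and 1 higher and 5 lower in carcinoma than in papilloma. In carcinoma Gstk1 fell by 2.51, and fell by 1.83 without carcinoma array 4 (7.33, others 10.51 to 11.28). Cyp2d22 fell by 2.02 and the sulphotransferase Sult1c2 fell by 1.36. In papilloma Sult1c2 fell by 1.70, Gstt2 fell by 1.70 and Cyp1b1 fell by 1.44. Gsto1, a glutathione transferase of the omega class, went against the list and was 2.40 higher in carcinoma and 2.44 higher in papilloma (1.74 and 1.78 against normal array 1 alone). Of 25 nuclear receptors and scaffold proteins that regulate or anchor transporters, 8 were higher and 4 lower in carcinoma, 5 higher and 5 lower in papilloma, and 4 higher and 1 lower in carcinoma than in papilloma. The aryl hydrocarbon receptor Ahr fell by 1.01 in carcinoma and fell by 1.08 in papilloma. Nr1i3, the receptor CAR, was 1.06 higher in carcinoma and 0.58 higher in papilloma, the latter call being lost when any 1 of the 10 normal and papilloma arrays was left out. Rxrg was 0.92 and 1.44 higher. Between the tumour types Pparg was 1.13, and the membrane linker Msn 0.96, higher in carcinoma, with an adjusted p of 0.0593 for Pparg when normal arrays were left out of the fit. Against normal array 1 alone Slc16a10 and Gstk1 in carcinoma, Slc10a6 and Cyp1b1 in papilloma, and Sult1c2, Nr1i3 and Rxrg in both did not pass the threshold.

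**Figure D5:**
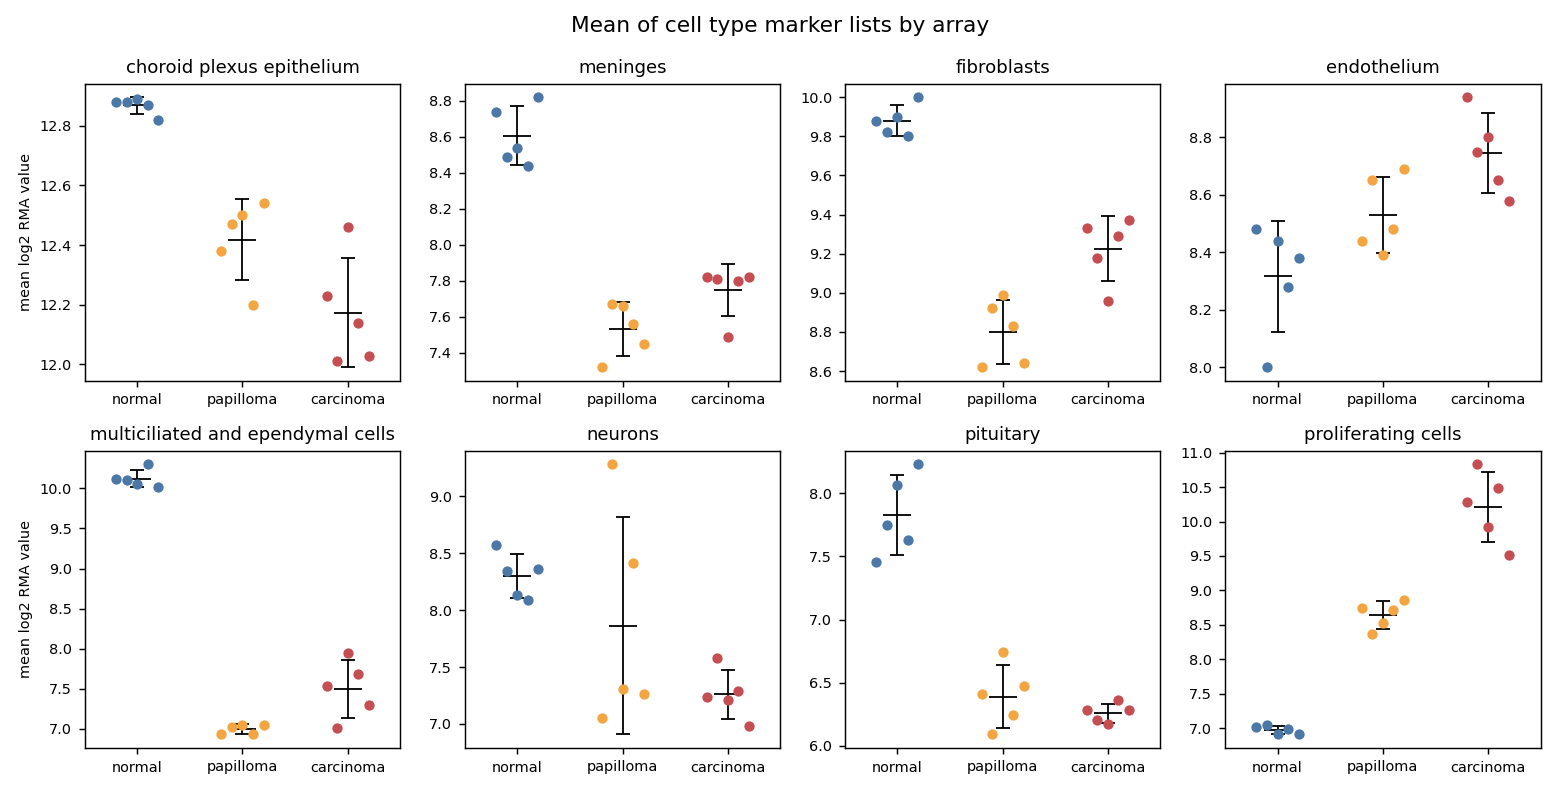
Mean log2 level over each fixed cell type marker list (vertical axis) in each array of normal choroid plexus, papilloma and carcinoma; points are arrays. The choroid plexus epithelium, meningeal, fibroblast, multiciliated and pituitary lists are lower in every tumour array than in every normal array. The proliferation list is higher in every tumour array.

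Upstream sequence was described for the 72 of 86 genes with a RefSeq window, over the 250 bases before the start (GRCm38.p6). The median number of CG dinucleotides was 6 in the transporter genes and 10 in the 16918 genes with a window. It was 12 in 11 genes that were higher in a tumour type, 8 in 23 that were lower and 5 in the 38 that were neither. Single genes varied widely in each class. The nucleoside carriers Slc29a2, Slc29a3 and Slc29a4 had 16, 15 and 16 and Slc29a1 had a mean of 9.2 over 8 windows. Among genes that fell, Slc22a6 and Slc22a8 had 0 and 1, and Slc47a2, Abca5, Slc22a4 and Slc22a5 had 18, 25, 26 and 30. The letters CACGTG, the canonical E-box, which read alike on both strands, occurred in 7 of 72 transporter genes (9.72%) and in 7.85% of all genes. This is a description of these windows only.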

How the data were processed

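The deposited log2 values are RMA summaries per probe set made by the authors, per the submitters' processing notes, which name Affymetrix Expression Console and RMA without versions. RMA subtracts background, gives arrays a shared distribution and compresses changes of dim probe sets. Of 41345 probe sets, 23521 had exactly 1 gene symbol in the platform's pairing table, 1814 several and 16010 none; names were updated for the 23328 that matched the RefSeq gene table. The brightest probe set stood for a gene, which left 22180 genes. These were fitted with limma 3.58.1 in R 4.3.3 (group only, all 15 arrays, 12 residual and 3.35 prior degrees of freedom), which was tested on simulated data. Arrays have no depth, so their number limits the precision. SDs rest on 5 arrays a group. SEs and intervals rest on 1 spread per gene from all 15 arrays, moderated by limma. A gene's SE is therefore the same in each comparison and includes the spread of the group not compared.

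The transporter genes, gene lists and tests were chosen with earlier results of these data known. Named were Slc47a1, Slc29a4, a fixed set of barrier transporters, and in each comparison up to 8 of the largest rises and falls past the threshold; of each other list up to 3 genes in its main direction and 1 in the other. Slc28a3 is named as such a gene between the tumour types. Abca6 and Abca9 were named after their values were seen. Replicate numbers did not pair arrays: deviations of arrays with 1 number correlated at -0.10 to 0.14. Alternatives were the number as a block, other moderation, normalization, centring, probe set and dim gene rules, chromosome shifts, 2 groups only and leaving out arrays.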

Additional observations from a re-analysis of the deposited data

Results flagged for a closer look

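In 105 groups of 5 arrays (35 named genes), 10 had 1 array far from the other 4; chance gives about 1 group in 20. Carcinoma array 4 was low for Abcg2 (6.33, others 8.03 to 8.38) and for Slco1c1 (11.68, others 13.14 to 13.26). Carcinoma array 2 was low for Abcg1 (10.47, others 11.18 to 11.38) and for Slc22a5 (9.16, others 9.51 to 9.62). Papilloma array 4 was low for Abca5 (9.15, others 9.34 to 9.38) and for Slc22a17 (12.36, others 12.60 to 12.67). Papilloma array 3 was high for Slc47a1 (7.44, others 6.90 to 7.05) and papilloma array 1 low for Slco1a6 (5.57, others 5.98 to 6.07). Normal array 1, whose Xist level was low, was low for Abca5 (10.54, others 10.83 to 10.93) and high for Slc22a4 (7.65, others 7.18 to 7.30).

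The tumour types' differences from normal themselves differed, by limma's test of carcinoma minus papilloma, in 12 genes. Carcinoma was higher for Abca5 (0.89), Abcc8 (0.83), Slc22a23 (0.64), Abca1 (0.60) and Slc29a1 (0.41). It was lower for Slco1a5 (-1.36), Abcg2 (-1.24), Slc22a17 (-0.54), Slc22a4 (-0.50), Abca4 (-0.31), Slc22a6 (-0.27) and Abcc10 (-0.25). With the tumour types fitted alone, 8 of the 12 lost the call: Abca1 (adjusted p = 0.0759), Abca4 (0.0958), Abcc8 (0.104), Abcc10 (0.0614), Abcg2 (0.0663), Slc22a6 (0.0603), Slc22a17 (0.0687) and Slc22a23 (0.115). Abca4 also lost it with chromosome shifts removed (0.0529) and without carcinoma array 1 or papilloma array 1, 2 or 5 (0.0578 to 0.0707).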

How the results depend on the processing

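Over the named genes and alternatives, 2467 values kept their direction and their side of the threshold, 77 lost the call, 11 gained one, and 29 changed sign without being past the threshold either way (-0.25 to 0.11). No called value changed sign. With only normal array 1 as control, chosen after seeing the data, 4 transporter genes were higher and 13 lower in carcinoma, and 3 and 10 in papilloma; all 35 and 27 genes called with 5 normal arrays kept their sign, and 16 and 13 their call, while calls over all genes fell to 16% and 12.3%. The 3 other lists then had 12, 10 and 5 calls in carcinoma (19, 23 and 12 with all arrays) and 7, 4 and 1 in papilloma (15, 20 and 10), in the order solute carriers, enzymes, sensors and scaffolds. Fewer control arrays are part of that alternative; the cause was not tested further. Fitting the tumour types alone gave 2 higher and 2 lower transporter genes in carcinoma, with 1329 genes called in place of 2530, and 3 enzymes and 2 sensors. With papilloma arrays 2 and 4 left out of the fit of all 3 groups, 3 transporter genes were higher in carcinoma than in papilloma. That fit called 1587 genes between the tumour types, with 3 solute carriers, 2 enzymes and 3 sensors. A common median gave 3 sensors. Leaving out 1 array at a time gave 10 to 12 higher and 21 to 25 lower in carcinoma, 7 to 10 and 19 to 20 in papilloma, and 3 to 8 and 6 to 10 between tumour types, where 8 was without carcinoma array 4 and 3 without carcinoma array 1 or papilloma array 1 or 5. The lists ranged between tumour types from 4 to 8 (solute carriers and enzymes) and from 3 to 5 (sensors).

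The replicate number as a block gave 11 higher and 23 lower in carcinoma, 8 and 19 in papilloma and 5 and 8 between the tumour types, with 3 sensors and scaffolds in place of 5; it ended the call of Abcg4 in carcinoma (-0.72, adjusted p = 0.0649) and changed no other call of a named gene. Dim genes left out, quantile normalization, other moderation, the mean of probe sets and removed chromosome shifts kept every count of transporter genes within 1.5 times. Signal over background limits the 30 genes below the array median everywhere.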
